A study of Homo sapiens with 6 samples.

Results

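Open chromatin regions were described on the pieces of the human assembly that carry no chromosomal position and on the mitochondrial genome. A peak was a member if its contig name started with chrUn, ended in _random or was chrM, and overlapping peaks of the 6 libraries were merged into regions. The rule gave 430 regions of the 69562 in the series. Of these, 219 lay on 45 unplaced contigs (chrUn, chromosome unknown), 204 on 27 unlocalised contigs (_random, chromosome known but position unknown) and 7 on chrM. The 3 classes are given apart.

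The series mapped open chromatin in nuclei of the Jurkat line, a human leukaemia line of T cells, by ATAC-seq, where a transposase cuts exposed DNA and adds adapters for sequencing. In 3 libraries (SMG 1 to SMG 3) isolated nuclei, not intact cells, were turned in a random positioning machine at 30 degrees per second for 30 min, which simulates microgravity, and 3 libraries (NG 1 to NG 3) were kept at normal gravity. All libraries started from 50000 cells, a lysis of 3 min and a transposition of 30 min at 37 °C. The labels do not state whether libraries of 1 group were grown as separate cultures, so every p-value measures only how these libraries differ from one another, which may be technical.

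Unplaced and unlocalised contigs are stretches that assembly could not set into a chromosome, often because they are repeated. Among them are copies of the 45S ribosomal RNA gene, which RNA polymerase I transcribes into the precursor of the 18S, 5.8S and 28S ribosomal RNAs, and which is present in tandem arrays of near-identical copies. The mitochondrial genome is a circle that carries no histones and is present in many copies per cell, so it is readily cut in ATAC-seq, and its share depends on how many mitochondria remain with the nuclei. Reads from near-identical copies, including nuclear copies of mitochondrial DNA, may be assigned to the wrong place, and the part of this in the values below was not tested. In such repeated DNA, more copies and more open copies cannot be told apart.

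The libraries held 42222, 42399 and 39624 peaks in SMG, against 37782, 43713 and 40601 in NG. The lists hold no read counts, so a summit pileup (fragments over the summit) and a local background were recovered from each peak's fold enrichment and p-value. The lowest background of a library, a measure of its depth, was 1.59, 1.73 and 1.59 fragments per base in SMG, against 1.17, 1.77 and 1.42 in NG. NG 1 was thus the shallowest library. Pileup and background are given below relative to that value, and a score percentile is the rank of a peak's −log10 q-value within its own library, with 100 the strongest. A region's value in a library is that of its highest-scored peak there, and its mean percentile is the mean over the libraries that hold it. All 12 T cell marker genes examined had a peak within 1 kb of a gene end in all 6 libraries, against 1 of 13 markers of B, myeloid, epithelial and fibroblast cells, COL1A1. The names of the peaks of SMG 3 contain the word "normalized", whose meaning no source used here gives.

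The mitochondrial genome was covered over most of its length in every library. Peaks covered 69.4%, 71.5% and 73.6% of the 16569 bases in SMG, against 68.5%, 72.0% and 69.5% in NG. The SMG libraries held 5, 5 and 7 mitochondrial peaks, and the NG libraries 8, 5 and 5. The groups overlapped in both measures. The higher counts came from stretches that were split or added in SMG 3 and NG 1.

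Of the 7 mitochondrial regions, 5 were held by all 6 libraries (71.4%, against 34.6% of all regions in the series). The first ran over bases 232 to 4504, from before TRNF through the ribosomal RNA genes RNR1 and RNR2 and ND1, a subunit of respiratory complex I. The peak ended within ND1 in SMG 1, SMG 2, NG 1 and NG 2, in the transfer RNA gene TRNI in NG 3, and in the first bases of ND2 in SMG 3. Its summit lay at bases 1243, 1250 and 1249 in SMG, against 777, 1251 and 1243 in NG, so NG 1 stood apart, although all 6 summits lay in RNR1. The second, bases 5890 to 7354, lay over COX1, the catalytic subunit of cytochrome c oxidase, with its summit at base 6286 or 6287 in each library. The third, bases 7634 to 8186, lay in COX2, a further subunit of that enzyme. The fourth, bases 8869 to 9920, spanned parts of ATP6, a subunit of ATP synthase, and COX3, and its summit was base 9280 in all 6 libraries. The last, bases 11193 to 16569, ran from ND4 through ND5, ND6 and CYTB, the cytochrome b of complex III, into the noncoding stretch at the end of the contig.

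Each of the other 2 mitochondrial regions was held by 1 library. Bases 4748 to 5416 in ND2, which also encodes a subunit of complex I, were called in SMG 3 with a fold of 1.14 over the local background and a score percentile of 80.2. Bases 10445 to 10719, mostly over ND4L, also of complex I, were called in NG 1 at a fold of 1.37. NG 1 also broke the last common region into 3 peaks, which left TRNH, TRNS2 and TRNL2 uncovered there, while those 3 transfer RNA genes lay wholly under a peak in the other 5 libraries.

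Of the 37 mitochondrial genes, 10 lay wholly under peaks in all 6 libraries. They were RNR1 and RNR2, the protein genes ND6 and CYTB, and the transfer RNA genes TRNF, TRNV, TRNL1, TRNE, TRNT and TRNP. All lay between bases 577 and 3304 or between 14149 and 16023, towards the ends of the contig. The local background at the peak summits was lower there, and its part in which genes were covered was not tested. Another 10 met no peak in any library, namely ATP8, ND3 and 8 of the 22 transfer RNA genes (TRNW, TRNA, TRNN, TRNC, TRNS1, TRND, TRNK and TRNG). Peaks covered more than 50% of a gene in all 6 libraries for 13 genes, among them 5 of the 13 protein-coding genes. COX3 varied between libraries of the same group. Its covered part was 22.1%, 73.7% and 91.1% in SMG, against 63.6%, 77.4% and 21.4% in NG.

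**Figure D1:**
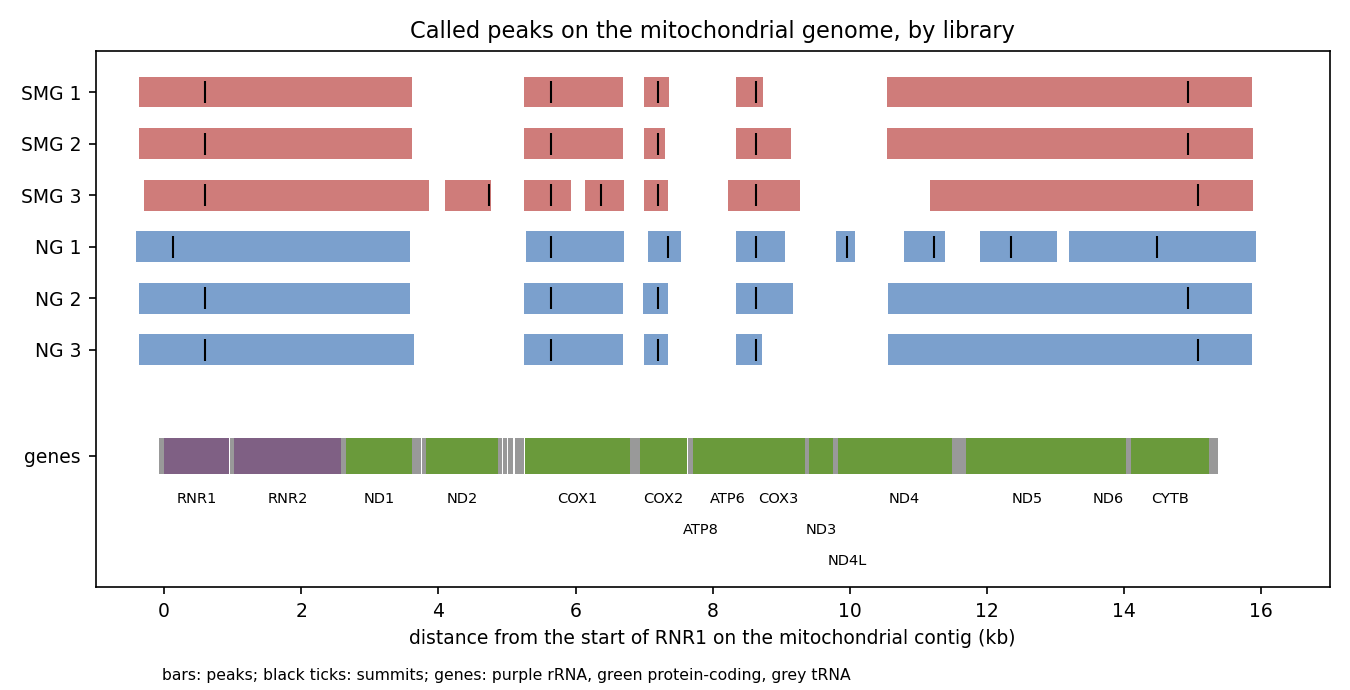
Peaks on the mitochondrial genome in each library, with SMG libraries above NG libraries, plotted by distance in kb from the start of RNR1. Bars are peaks, black ticks are summits and the lowest track shows the genes. The 4 libraries SMG 1, SMG 2, NG 2 and NG 3 share nearly the same 5 peaks, and SMG 3 and NG 1 have 7 and 8.

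Mitochondrial peaks were the tallest of the series in pileup and low in fold. At the COX3 summit the pileup was 8506, 9563 and 8036 fragments in SMG, against 7799, 8233 and 7507 in NG. The local background there was already 6139, 7150 and 6272 fragments in SMG, against 5431, 6355 and 5527 in NG, so the fold at this summit was 1.39, 1.34 and 1.28 in SMG and 1.44, 1.30 and 1.36 in NG. Across all mitochondrial peaks the fold lay between 1.14 and 2.62. A peak here is a pileup above the local background of a stretch that is covered throughout. A gene without a peak is not a gene without reads. The highest folds, 2.10 to 2.62, were at the summits in RNR1 and CYTB. At RNR1 the relative background was 2242, 2432 and 2286 in SMG, against 2436, 2102 and 2259 in NG. The relative pileup was 4924, 5380 and 4793.5 in SMG, against 6386, 4506 and 4900 in NG. Both lay below those at COX3 in every library, so the higher fold at RNR1 went with a lower background, not a taller pileup. The summits in RNR1 and CYTB were also the nearest to the ends of the contig. In NG 1 the relative background was 3113 at base 15131, 4113 at base 12997 and 4638 at base 9280. The part of distance from the contig ends in background and fold was not tested.

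Mitochondrial load, taken as the local background at the COX3 summit over the lowest background of the library, was 3856, 4140 and 3937 in SMG, against 4638, 3588 and 3895 in NG. NG 1 was the highest and NG 2 the lowest library, and the SMG values lay between them. The means were 3977 ± 146 in SMG and 4040 ± 539 in NG (SD, n = 3 each), a difference of −62.9 with an exact permutation p of 0.9 (two-sided, smallest possible 0.1). Without NG 1 the difference was 235.8. NG 1 also had the lowest depth and NG 2 the highest, and the part of depth in their ratios was not tested. In all 5 common mitochondrial regions NG 1 had the highest relative pileup and NG 2 the lowest. At COX3 the relative pileup was 5343, 5537 and 5044 in SMG, against 6660, 4648 and 5291 in NG, a log2 difference of −0.04 with a 95% interval of −0.37 to 0.28 (limma).

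Copies of the 45S ribosomal RNA gene lay on 2 contigs, 1 of each nuclear class. The gene table gives RNA45SN5 at bases 105424 to 118780 without naming a contig, and its place on the unplaced contig GL000220v1 is background knowledge of the assembly. In the same way RNA45SN4, bases 122273 to 135645, was placed on KI270733v1, an unlocalised contig of chromosome 22. GL000220v1 held 29 regions and KI270733v1 held 32, of which 12 on each were held by all 6 libraries.

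Within each of these 2 copies, the region over the 18S gene had the highest mean score percentile of those held by all 6 libraries. The 28S gene ranked higher in NG 1 for RNA45SN5 (89.7 against 89.3) and in SMG 2 for RNA45SN4 (85.6 against 81.2). It also ranked higher in some libraries for each of the copies on chromosome 21, which are not members. On GL000220v1 the region at bases 109187 to 110967 over RNA18SN5 (bases 109078 to 110946) was held by all 6 libraries at a mean score percentile of 92.7 and a mean fold of 4.68. Its relative pileup was 80.4, 86.3 and 95.4 in SMG, against 66.6, 88.1 and 83.9 in NG. On KI270733v1 the region at bases 125853 to 127847 over RNA18SN4 (bases 125931 to 127799) had a mean percentile of 89.8, with relative pileups of 85.4, 70.6 and 86.0 in SMG, against 75.1, 83.6 and 88.8 in NG. The groups overlapped at both genes.

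A further peak held by all 6 libraries lay near the far end of the 28S gene on each contig. It spanned bases 117409 to 118129 within RNA28SN5, at a mean percentile of 85.8, and bases 134283 to 135325, which reach just past the end of RNA28SN4 at base 135280, at 85.9. At RNA28SN5 the relative pileup was 67.8, 75.3 and 62.8 in SMG, against 74.3, 79.6 and 83.2 in NG. At RNA28SN4 it was 65.3, 75.3 and 68.4 in SMG, against 74.3, 80.7 and 85.3 in NG. At both, SMG 2 was above NG 1 and the groups overlapped. On GL000220v1 a region before the start of the 45S gene, bases 101671 to 102453, was also held by all 6 libraries, at a mean percentile of 67.4. The 5.8S genes of the 2 copies, RNA5-8SN5 and RNA5-8SN4, met no peak in any library. Of the copies on chromosome 21, RNA5-8SN1 also met no peak, but RNA5-8SN2 lay wholly under a peak in 5 libraries and RNA5-8SN3 in 4. The 18S genes RNA18SP3 and RNA18SP4, named as pseudogenes, lay on GL000220v1 and KI270733v1 by the same reasoning. They were under regions held by all 6 libraries at mean percentiles of 90.9 (bases 153210 to 154956) and 85.0 (bases 170986 to 172856).

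**Figure D2:**
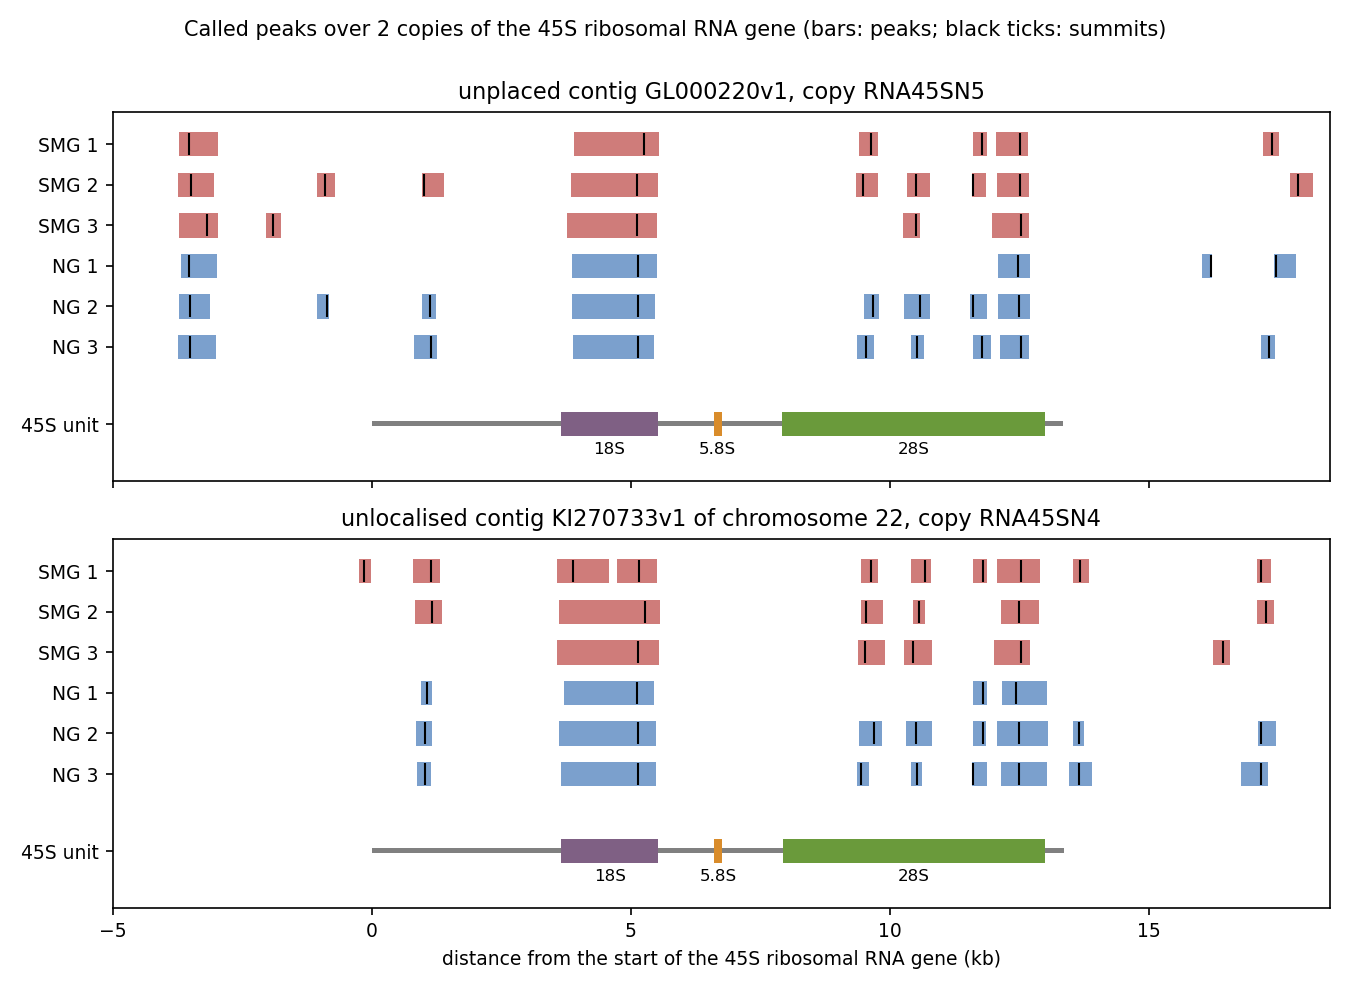
Peaks over the 45S ribosomal RNA gene copies RNA45SN5 (upper panel) and RNA45SN4 (lower panel) in each library, with SMG libraries above NG libraries, by distance in kb from the start of the gene. Bars are peaks, black ticks are summits and the lowest track marks the 18S, 5.8S and 28S parts. All 6 libraries have a peak over 18S and one near the far end of 28S on both contigs, and on the upper one also a peak before the start of the gene. Each other peak within the 45S gene is missing in 1 or more libraries.

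The whole 45S unit lay on a raised background. The median local background of peaks in RNA45SN5 was 18.4, 18.7 and 15.5 times the lowest of the library in SMG, against 15.4, 19.7 and 20.3 in NG. In RNA45SN4 it was 19.3, 20.8 and 18.3 in SMG, against 16.4, 19.8 and 21.4 in NG. The copies set on chromosome 21 had a similar background. For RNA45SN1 it was 16.5, 17.8 and 15.7 in SMG, against 13.9, 17.9 and 18.7 in NG. NG 1 and SMG 3 were the lowest libraries in all 3 copies.

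Of the 10 unplaced regions of highest mean percentile, 7 lay on contigs with fewer than 3 regions. The region held by all 6 libraries with the highest mean percentile, 99.97, was at bases 1847 to 3891 of KI270467v1. Its relative pileup was 418, 415 and 581 in SMG, against 470, 473 and 427 in NG, so SMG 3 was the highest library and the groups overlapped. At KI270337v1, bases 1 to 1121, the relative pileup was 210, 215 and 268 in SMG, against 258, 270 and 233 in NG. On KI270466v1, bases 1 to 1233, SMG 3 was again the highest, with 149, 145 and 266 in SMG, against 155, 165 and 148 in NG. On KI270336v1, bases 1 to 1026, it was 79.1, 91.5 and 117 in SMG, against 99.1, 90.3 and 88.1 in NG. On KI270466v1 and KI270336v1 the called peak began at the first base and ended at the same base in all 6 libraries. KI270310v1, bases 52 to 1201, had the highest mean fold of these regions, 19.4, and relative pileups of 141, 172 and 151 in SMG, against 206, 157 and 157 in NG. On KI270333v1, bases 1 to 2636, it was 133, 136 and 209 in SMG, against 138, 150 and 143 in NG. On KI270411v1, bases 120 to 2368, it was 94.8, 107 and 149 in SMG, against 111, 99.9 and 111 in NG. SMG 3 was the highest library on 5 of these 7 contigs, the exceptions being KI270337v1 and KI270310v1, and the groups overlapped on all 7. The count of 5 was chosen after its values were seen. Among regions held by all 6 libraries, SMG 3 was the highest in 19 of 87 unplaced regions (21.8%) and in 20.4% over the whole series. The last base under a peak lay between 1026 (KI270336v1) and 3891 (KI270467v1) on these contigs. The part of contig length in their local background, fold and score was not tested.

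The other 3 of the 10 highest unplaced regions were on contigs with more regions. At GL000216v2, bases 149270 to 149954, the relative pileup was 280, 262 and 183 in SMG, against 284, 261 and 273 in NG, and SMG 3 was the lowest library. KI270744v1, bases 141642 to 142872, had 113, 135 and 117 in SMG, against 130, 135 and 124 in NG. GL000195v1, bases 30267 to 31408, had 122, 135 and 112 in SMG, against 104, 113 and 133 in NG. The groups overlapped at all 3, and no gene in the table used here could be assigned to any of the 10 regions.

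Unplaced regions were concentrated on few contigs. The 7 contigs with 10 or more regions held 132 of the 219 (60.3%), while 23 of the 45 contigs had a single region and 12 had none held by all 6 libraries. After GL000220v1 the most regions were on GL000195v1 (22, of which 6 held by all 6 libraries), GL000214v1 (21, of which 8), KI270742v1 (18, of which 1), KI270744v1 (17, of which 10), GL000216v2 (13, of which 9) and GL000224v1 (12, of which 6). GL000216v2 and KI270742v1 thus stood at opposite ends, and the median score percentile of their regions was 70.6 and 17.5. KI270751v1 had 8 regions, and GL000219v1, KI270442v1 and KI270743v1 had 7 each, with 2 held by all 6 libraries on each of these 4 contigs. KI270538v1 had 6 regions with 3 held by all 6, GL000226v1 had 5 with 0, KI270754v1 had 5 with 1, KI270438v1 had 4 with 3 and KI270317v1 had 3 with 1. The 4 regions of KI270438v1 had a median percentile of 89.1, higher than those of the other unplaced contigs with 3 or more regions.

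Among unlocalised regions chromosome 14 led with 70 of 204 regions on 6 contigs, followed by chromosome 22 with 50 on 4 and chromosome 1 with 21 on 6. A single contig of chromosome 14, GL000225v1, held 57 regions, more than any other contig of the 3 classes, and 28 of them were held by all 6 libraries. The 5 unlocalised contigs with 10 or more regions held 127 (62.3%). Besides GL000225v1 and KI270733v1 these were GL000221v1 of chromosome 3 with 16 regions, KI270728v1 of chromosome 16 with 11 and GL000205v2 of chromosome 17 with 11. None of the regions on GL000221v1 or KI270728v1 was held by all 6 libraries, and 10 of 16 and 8 of 11 were held by a single one. On GL000205v2, 5 of 11 were held by all 6.

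On KI270734v1 of chromosome 22, 6 of 7 regions were held by all 6 libraries. GL000008v2 of chromosome 4 had 7 regions, of which 1 was held by all 6 libraries. On chromosome 1, KI270709v1 and KI270711v1 had 6 regions each, KI270706v1 had 4 and KI270713v1 had 3, with 2, 1, 1 and 1 held by all 6. On chromosome 22, KI270731v1 had 6 with 4 held by all 6 and KI270736v1 had 5 with 0. On chromosome 14, KI270726v1 had 5 with 1 and GL000009v2 had 4 with 0. KI270727v1 of chromosome 15 had 4 with 3, KI270718v1 of chromosome 9 had 4 with 1, KI270719v1 of the same chromosome had 3 with 0 and GL000208v1 of chromosome 5 had 3 with 1.

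The unlocalised region of highest score was at bases 121309 to 121995 of KI270734v1, at a mean percentile of 99.97 and a mean fold of 18.03. Its relative pileup was 242, 248 and 222 in SMG, against 303, 241 and 260 in NG, and the groups overlapped. Of the other 9 of the 10 highest, 7 were on GL000225v1. The strongest of them, bases 67161 to 67762, had 169, 184 and 122 in SMG, against 206, 174 and 184 in NG. The next, bases 25386 to 25986, had 121, 122 and 89.8 in SMG, against 138, 132 and 138 in NG. In this second region all SMG libraries were below all NG libraries, and in both SMG 3 was the lowest.

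The other 5 on GL000225v1 were bases 6583 to 7111, 50677 to 51147, 110796 to 111788, 85438 to 86724 and 99078 to 99649, at mean percentiles of 99.4, 99.2, 99.1, 97.0 and 96.9. In each of them SMG 3 was the lowest library and NG 1 was the highest, apart from 99078 to 99649, where NG 3 was the highest. KI270713v1 of chromosome 1, bases 20977 to 22519, had relative pileups of 131, 145 and 168 in SMG, against 108, 124 and 132 in NG. GL000205v2, bases 86707 to 90027, had 143, 159 and 206 in SMG, against 144, 165 and 187 in NG. SMG 3 was the highest library at both, and the groups overlapped.

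The number of peaks of each class in a library did not separate the groups. The SMG libraries held 152, 150 and 129 unplaced peaks, and the NG libraries 125, 148 and 141, with means of 144 ± 12.7 and 138 ± 11.8 (SD, n = 3 each; exact permutation p 0.5). The SMG libraries held 134, 129 and 102 unlocalised peaks, and the NG libraries 120, 138 and 126, with means of 122 ± 17.2 and 128 ± 9.17 (exact permutation p 0.7, n = 3 each). SMG 3 was the lowest library for unlocalised peaks and NG 1 for unplaced ones, and leaving out either turned the direction. Without NG 1 the difference in unplaced peaks was −0.833, and without SMG 3 that in unlocalised peaks was 3.5.

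The bases under unplaced peaks were 90.5 ± 3.70 kb in SMG and 84.2 ± 8.41 kb in NG (SD, n = 3 each; exact permutation p 0.2). For unlocalised peaks they were 67.4 ± 7.94 kb in SMG and 65.1 ± 8.46 kb in NG (exact permutation p 0.9, n = 3 each), with differences of −1.53 kb without NG 1 and −0.714 kb without SMG 2. The median score percentile of unplaced peaks was 53.5 ± 2.71 in SMG and 55.8 ± 5.50 in NG (exact permutation p 0.6, n = 3 each), and without NG 1 the difference was 0.814. For unlocalised peaks it was 50.3 ± 3.88 in SMG and 48.4 ± 1.94 in NG (exact permutation p 0.7, n = 3 each), with a difference of −0.151 without SMG 3. For mitochondrial peaks it was 99.8 ± 0.156 in SMG and 99.7 ± 0.303 in NG (exact permutation p 0.6, n = 3 each), with a difference of −0.0874 without NG 2. With 3 libraries against 3 the smallest p is 0.1, and adjusted over the 9 tests of peaks, bases and percentiles each value was 0.9 or above.

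**Figure D3:**
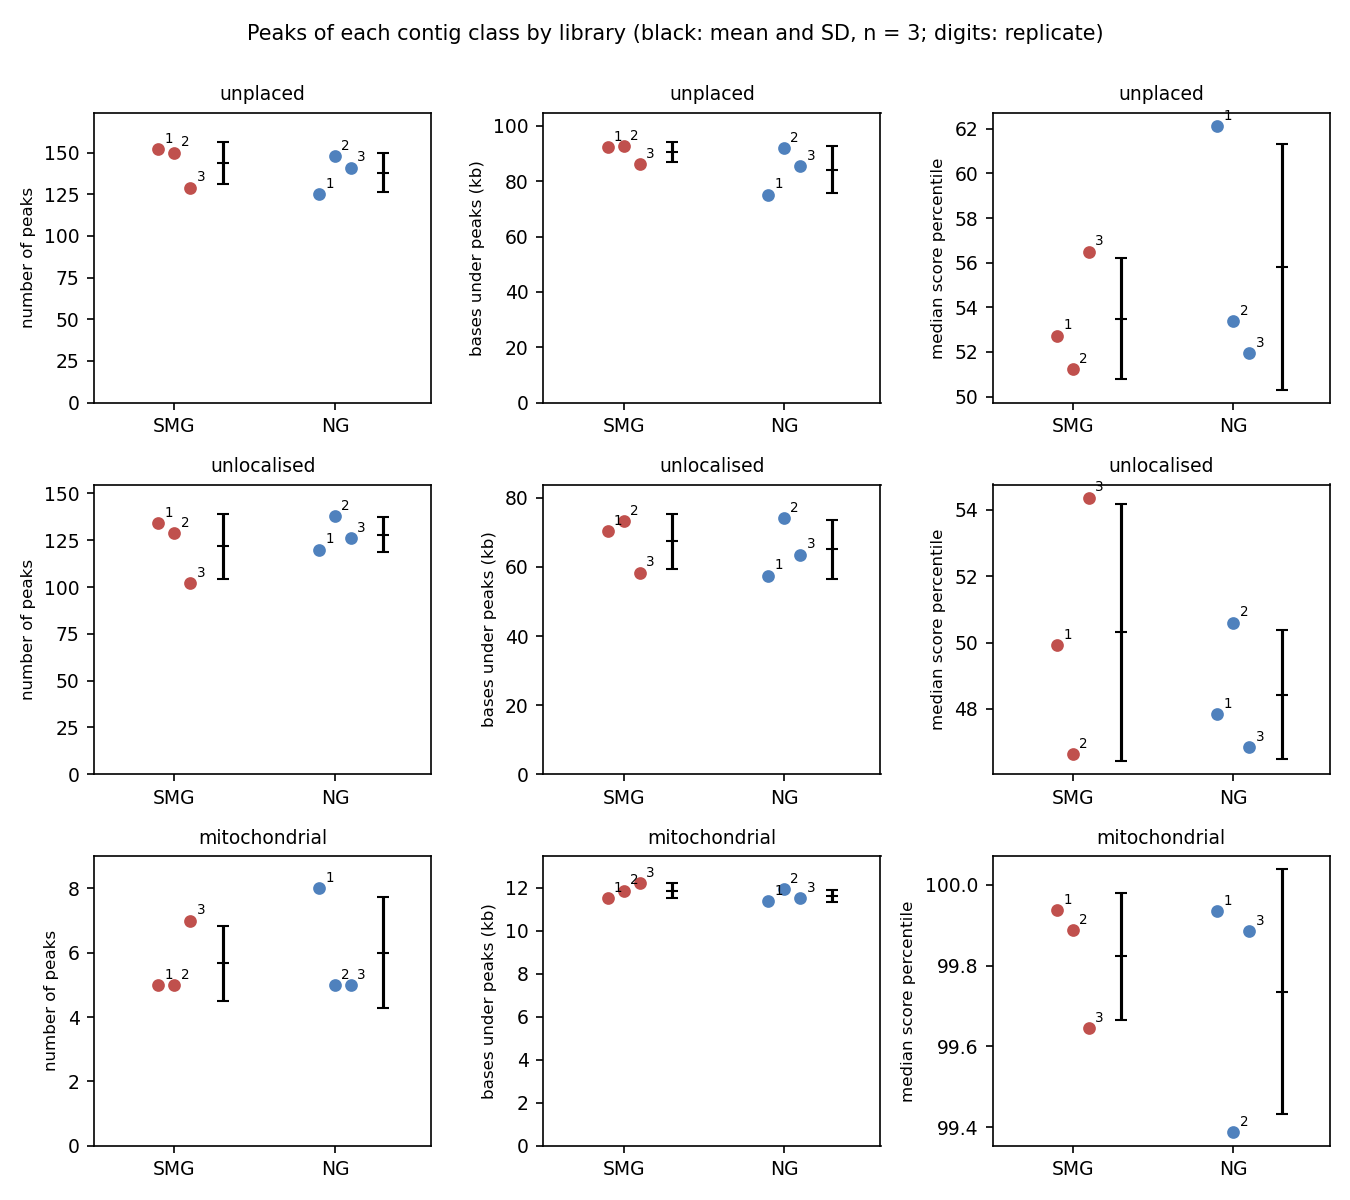
Number of peaks, bases under peaks in kb and median score percentile of unplaced, unlocalised and mitochondrial peaks in each library, with SMG left of NG. Points are libraries with their replicate number, and black marks are the mean and SD of 3 libraries. The groups overlap in all 9 panels.

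Of the unplaced regions 87 of 219 (39.7%) were held by all 6 libraries and 68 (31.1%) by 1 library only. Of the unlocalised regions these were 72 of 204 (35.3%) and 71 (34.8%). Over the whole series 34.6% were held by all 6 and 34.9% by 1, so both nuclear classes were near the series. The Jaccard index of 2 libraries, shared bases over bases covered by either, was 0.617 to 0.692 on unplaced contigs, 0.527 to 0.672 on unlocalised contigs and 0.758 to 0.993 on chrM, against 0.517 to 0.611 on the chromosomes. On unplaced contigs the mean index was 0.656 within groups and 0.656 between them (exact permutation p 0.5, one-sided, n = 6 libraries), and on unlocalised contigs 0.594 and 0.601 (exact permutation p 0.8, n = 6 libraries).

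**Figure D4:**
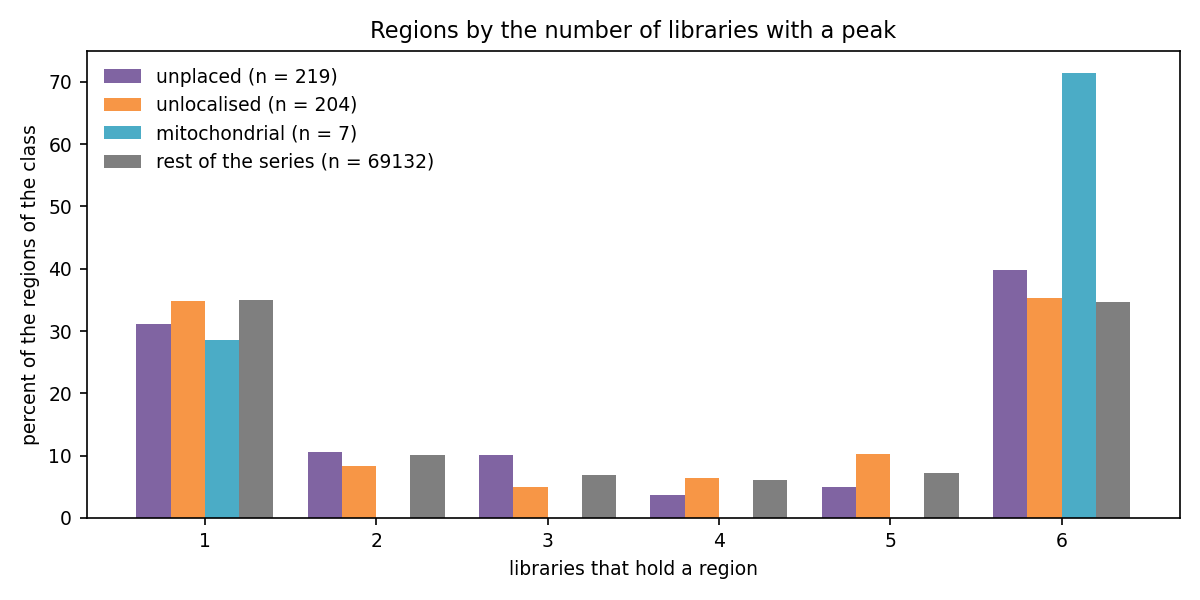
Percent of the regions of each contig class and of the rest of the series, by the number of libraries that hold them. Bars are shares of 219 unplaced, 204 unlocalised, 7 mitochondrial and 69132 other regions. Held by all 6 libraries were 39.7% of unplaced, 35.3% of unlocalised and 71.4% of mitochondrial regions.

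Few regions were found in each library of 1 group and in no library of the other. Unplaced contigs had 2 SMG-only regions (0.913% of unplaced regions, background in the series 0.411%), and unlocalised contigs and chrM had 0. On GL000195v1, bases 50967 to 51372 were called at score percentiles of 38.7, 25.6 and 23.4 in SMG 1, SMG 2 and SMG 3. On KI270744v1, bases 124430 to 124895 were called at 38.2, 25.6 and 15.9. The single NG-only region (0.457% of unplaced regions, background 0.260%) was at bases 5316 to 5898 of GL000224v1. It was called at 36.3, 9.94 and 8.57 in NG 1, NG 2 and NG 3, with folds of 1.82, 1.56 and 1.59. All 3 regions ranked in the lower part of their libraries. A region held 3 against 0 has an exact permutation p of 0.1 at best (n = 3 each). Leaving out a library of the group loosens the rule from 3 against 0 to 2 against 0, so more regions can meet it. Without SMG 3 there were then 8 unplaced and 4 unlocalised SMG-only regions, and without NG 1 there were 3 unplaced NG-only regions. The same counts over all regions were not made, so these have no background beside them.

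The regions held by all 6 libraries were also compared by height. On log2 relative pileup, limma called 0 of 87 unplaced, 0 of 72 unlocalised and 0 of 5 mitochondrial regions, and 0 of all 24103 (background 0%), at an adjusted p under 0.05. At an unadjusted limma p under 0.05, 2 of 87 unplaced regions were higher in SMG and 4 lower. Of 72 unlocalised regions 1 was higher and 6 lower, and no mitochondrial region passed. Over all 24103 regions 443 were higher and 977 lower. The counts of the classes were not tested against those over all regions. Without the intensity trend in the prior, 1 unplaced region was higher and 3 lower, and 0 unlocalised regions were higher and 2 lower. Over all 24103 regions 459 were then higher and 876 lower. Without SMG 3, 1 of 87 unplaced regions was higher and 1 lower. Of 72 unlocalised regions 1 was then higher and 0 lower, against 379 higher and 917 lower over all 24103 regions. Limma then called 3 of all regions, all lower in SMG, and none on these contigs.

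The ranges of the groups did not overlap in 2 unplaced regions with SMG above NG (2.30%, background 3.68%) and 10 with SMG below NG (11.5%, background 7.16%). Among unlocalised regions these were 2 (2.78%) and 5 (6.94%), and among mitochondrial regions 0 and 0. With each library centred on its own median in place of its lowest background, the counts above and below changed. They were 4 (4.598%) and 5 (5.747%) for unplaced regions, and 4 (5.556%) and 4 (5.556%) for unlocalised regions. Over all regions they were 1443 (5.987%) and 1246 (5.169%). Centred in this way, at an unadjusted limma p under 0.05, 2 of 87 unplaced regions were higher and 3 lower. Of 72 unlocalised regions 1 was higher and 3 lower, and of all 24103 regions 867 were higher and 631 lower.

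The largest differences were chosen after their values were seen. On KI270442v1, an unplaced contig, bases 230597 to 231491 had relative pileups of 16.3, 16.8 and 16.9 in SMG, against 9.39, 11.9 and 9.16 in NG. The groups did not overlap, and the log2 difference was 0.73 with an SE of 0.23 and a limma adjusted p of 0.659. On GL000225v1, bases 85438 to 86724 had 67.2, 64.3 and 42.1 in SMG, against 91.4, 72.8 and 78.2 in NG, a log2 difference of −0.51 with an SE of 0.16 and a limma adjusted p of 0.659. Neither passed the test over all regions.

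**Figure D5:**
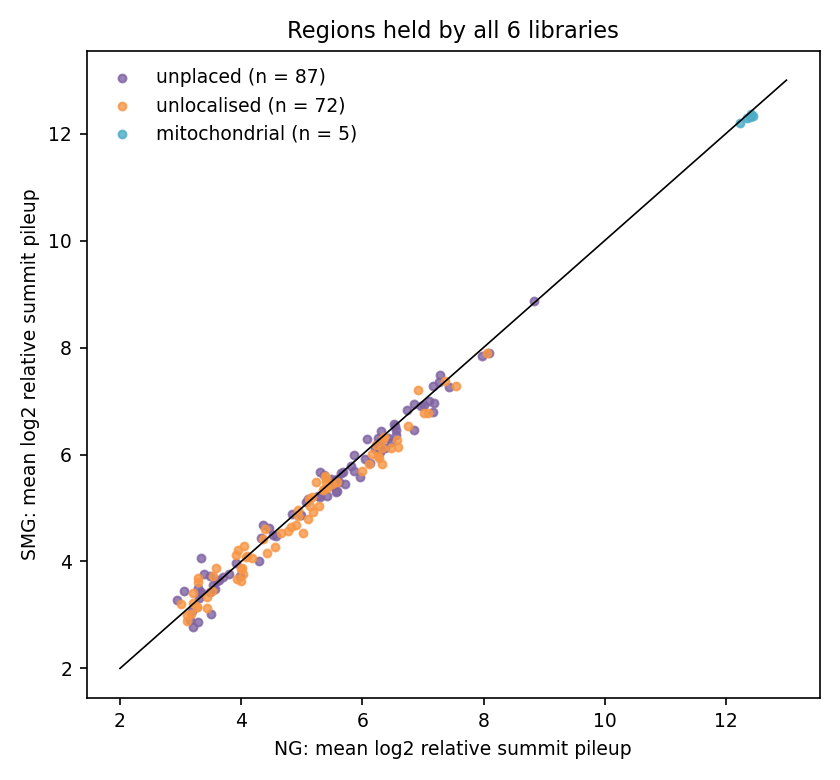
Mean log2 relative summit pileup in SMG (vertical axis) against NG (horizontal axis) for the 164 member regions held by all 6 libraries, coloured by class, with the line of equal values. The 87 unplaced and 72 unlocalised regions lie along the line, and the 5 mitochondrial regions form a group of their own at the top.

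SMG 3 was the lowest library for many of these regions. It was the lowest of the 6 in 34 of 87 unplaced regions (39.1%) and 39 of 72 unlocalised regions (54.2%), against 24.7% of all regions held by all 6 libraries. On GL000225v1 it was the lowest in 22 of 28. The median relative pileup of these 28 regions was 58.9, 51.5 and 41.7 in SMG, against 56.6, 55.0 and 52.6 in NG. Their median log2 difference was −0.24, and −0.12 without SMG 3. On GL000216v2 SMG 3 was the lowest in 9 of 9, with medians of 59.0, 68.9 and 46.4 in SMG, against 69.2, 77.4 and 62.7 in NG, and the median log2 difference was −0.27, and −0.08 without SMG 3. The contig with the ribosomal copy RNA45SN5 did not follow this, as SMG 3 was the lowest in 4 of 12 and the highest in 4 of 12. NG 1 was the highest library in 24 unplaced regions (27.6%), 23 unlocalised regions (31.9%) and all 5 mitochondrial ones, against 13.5% of all regions held by all 6 libraries. The members of a contig share their source and are not replicates, and these counts were chosen after their values were seen.

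Set against the rest of the series in the same library, both nuclear classes had a higher median local background. The median relative background was 5.03 ± 1.15 for unplaced peaks and 1.65 ± 0.0604 for the rest (SD, n = 6 libraries), higher in 6 of 6 libraries (exact sign-flip permutation p 0.03125, the smallest it allows, adjusted 0.0417). For unlocalised peaks it was 4.53 ± 0.357, also higher in 6 of 6 libraries with the same p. The fold over that background ranked lower in 6 of 6 libraries. The median fold percentile was 21.6 for unplaced peaks and 21.5 for unlocalised peaks, against 50.0 for the rest (exact sign-flip permutation p 0.03125, n = 6 libraries, adjusted 0.0417 for both). Fold and background are linked, since the background is the divisor of the fold. The higher background did not hold for each contig. Over the peaks of all libraries its median was 9.01 on GL000225v1, 16.3 on KI270733v1, 15.5 on GL000220v1 and 25.6 on GL000224v1. It was 1.03 on KI270728v1, 1.90 on GL000221v1, 1.84 on KI270742v1 and 2.27 on GL000195v1. The libraries share these contigs, so the test does not show the trait contig by contig.

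Score and width were also set against the rest for each class. Unplaced peaks had a median score percentile of 54.7, against 49.9 for the rest, higher in 6 of 6 libraries by 1.23 to 12.3 points (exact sign-flip permutation p 0.03125, n = 6 libraries, adjusted 0.0417). Unlocalised peaks had 49.4, higher in 2 of 6 libraries (exact sign-flip permutation p 0.625, n = 6 libraries). Unlocalised peaks were narrower, with a median width of 436 bp against 467 bp, in 6 of 6 libraries (exact sign-flip permutation p 0.03125, n = 6 libraries, adjusted 0.0417), while unplaced peaks had 472 bp, wider in 2 of 6 libraries (exact sign-flip permutation p 0.75, n = 6 libraries). The difference between the 2 classes was not itself tested. With any 1 library left out, each difference with a p of 0.03125 kept its direction with a p of 0.0625, the smallest possible for 5 libraries.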

How the data were processed

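Peak lists of 6 libraries were used, 1 per sample, on hg38. FastQC, BWA, Bowtie, SAMtools and MACS2 are named in the submitters' processing notes, without versions. The authors deposited for each peak an integer score, a fold enrichment at the summit (a ratio over local background), a −log10 p-value, a −log10 q-value and a summit offset. No source used here gives the treatment of duplicate and multiply mapped reads.

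From the deposited fold and −log10 p, the whole-number summit pileup and local background were solved with the formulas of MACS2 (tolerance 0.005 on −log10 p, 100% of peaks). This assumes those formulas. Peaks were merged at an overlap of 1 bp. The members and lists were chosen with earlier results of these data known. Group means were compared by exact permutation over 10 splits, classes with the rest by exact sign-flips, and log2 relative pileups by limma 3.58.1 with Benjamini-Hochberg adjustment. Permutation, sign-flips and adjustment were checked on short made-up lists with known answers. Pileup recovery and limma were checked on simulated data. The simulated limma changes were larger than the differences reported here, so power at those differences was not tested. Alternatives were a −log10 q of 5 or more, ranking by fold, merging across gaps of 100 bp, another scaling, replicates left out and a replicate block. Regions named were all mitochondrial regions, the 10 highest of each other class, group-only regions and contigs with 3 or more regions. A RefSeq table of 59792 genes gave gene positions. No genome sequence was used, so no sequence is printed.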

Additional observations from a re-analysis of the deposited data

How the results depend on the processing

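The replicate numbers did not pair the libraries (correlations of same-numbered deviations 0.0241, −0.00566 and −0.0249), and under the replicate block, with a smallest p of 0.25 for the 3 pairs, the unplaced difference was 5.67 peaks and no call changed. With peaks of −log10 q 5 or more, the difference in unplaced percentile was 0.477 and in unlocalised peaks 2.67, unplaced NG-only regions numbered 0 and unlocalised SMG-only regions 1. Ranked by fold, the mitochondrial percentile differed by −0.000629. Median centring was chosen after seeing the data, as were the other alternatives for load, limma and the rest of the series. It gave 8 of 164 members above and 9 below without overlap, against 1443 (5.99%) above and 1246 (5.17%) below of all 24103 regions. Leaving out 1 replicate at a time, the SMG minus NG difference ranged over −0.833 to 13 unplaced peaks, 1.79 to 10.1 kb and −4.27 to 0.814 percentile points, over −12.5 to 3.5 unlocalised peaks, −1.53 to 6.83 kb and −0.151 to 3.71 points, over −1 to 0.667 mitochondrial peaks and −0.0874 to 0.187 points, and over −288.9 to 235.8 for mitochondrial load. SMG-only regions ranged over 2 to 8 unplaced and 0 to 4 unlocalised, and NG-only regions over 1 to 3 and 0 to 3. A library left out loosens the rule for these. Limma calls over all regions ranged from 0 to 3. Class minus rest ranged over 3.21 to 5.41 percentile points, −2 to 10 bp, 3.13 to 3.74 in background and −30.1 to −26.8 in fold percentile for unplaced peaks, and over −36.9 to −26.1 bp, 2.78 to 2.98 and −29.5 to −27.6 for unlocalised peaks. A further 134 values under alternatives chosen at the outset and 44 under later ones counted as unchanged. For differences between groups this means only the same direction, since a permutation p of 0.1 at best cannot pass 0.05. For counts of regions it means an equal value or one within a fixed factor. For classes against the rest it means the same direction and side of 0.05. Depth could be read only from the peaks, and the part of depth in regions near the calling threshold was not tested.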
